A study of Mus musculus with 24 samples.

Results

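The NMDA receptor subunit genes Grin1, Grin2a, Grin2b, Grin2c, Grin2d and Grin3a were followed across mouse dentate gyrus RNA-seq libraries. They are 6 of the 26667 genes of the count table and were taken from it by symbol. All 6 passed the filter on low counts, which kept 18286 genes. The remaining subunit gene, Grin3b, reached only 1.27 to 3.79 CPM, the count scaled to library size, and was not followed.

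The study compared 5 groups, with 1 dentate gyrus library per mouse and 24 libraries used here. There were 5 libraries of APP/PS1 mice that had both BCI-838 and a running wheel, 4 of APP/PS1 mice on BCI-838 alone, 5 of APP/PS1 mice with the wheel alone, 5 of untreated APP/PS1 mice and 5 of wild-type (WT) C57BL6/J mice. APP/PS1 mice carry mutant human amyloid precursor protein and presenilin 1 transgenes and are used as a model of amyloid deposition, and all groups except WT carried them. BCI-838 is a pro-drug whose product blocks mGluR2 and mGluR3, a pair of metabotropic glutamate receptors, and was dosed orally at 5 mg/kg per day for 1 month, and the wheel was freely available for 1 month. No promoter of the transgenes and no age or sex of the mice is given in the sources used here. The groups with both treatments, with the wheel alone, with BCI-838 alone and without treatment are called doubly treated, wheel, BCI-838 and APP/PS1 control mice.

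NMDA receptors are glutamate-gated cation channels that open when glutamate and a co-agonist, glycine or D-serine, are bound and depolarisation removes a magnesium ion from the pore. Every receptor holds GluN1, the product of Grin1, combined with GluN2 subunits (Grin2a to Grin2d) or GluN3 subunits, and the partner sets the channel's kinetics and its block by magnesium. In hippocampal principal neurons GluN2A and GluN2B prevail, GluN2B being the earlier of the pair in development, and calcium that enters through them drives synaptic plasticity. GluN2C is best known from cerebellar granule cells and GluN2D from thalamus, midbrain and interneurons. GluN3A lowers the calcium permeability of the receptor and is most abundant early after birth.

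The genes are separate loci, and the stretches below show what makes them 1 family and what the reads had to tell apart. The first set holds 45 coding bases each of Grin1, Grin2c and Grin3a, 1 gene from each subunit class, read 5′ to 3′ on the coding strand from GENCODE M21 transcripts (GRCm38). The 21 capitals encode the conserved core of the third membrane segment, which lines the gate of the channel.
Grin1: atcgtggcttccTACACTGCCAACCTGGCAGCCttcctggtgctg
Grin2c: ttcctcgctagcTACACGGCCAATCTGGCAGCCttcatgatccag
Grin3a: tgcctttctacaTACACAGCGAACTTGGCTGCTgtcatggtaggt
Between any pair of these 3 genes the capitals differed at 2 to 6 of 21 bases, while all 7 encoded residues were the same. The stretches lie on the minus strand at chr2:25297190-25297234 (Grin1, exon 15 of 21), chr11:115253740-115253784 (Grin2c, exon 11 of 15) and chr4:49770461-49770505 (Grin3a, exon 3 of 9).

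The second set shows the last 24 coding bases of the 4 GluN2 genes, with the last 12 in capitals. These encode the carboxyl end by which GluN2 subunits bind the PDZ domains of PSD-95 and related scaffolds.
Grin2a: atgcctagtattGAATCTGATGTC
Grin2b: ctttctagtattGAGTCTGATGTC
Grin2c: atctccagcctgGAATCAGAAGTG
Grin2d: ttctccagcctgGAGTCCGAGGTA
The capitals of Grin2a and Grin2b differed at 1 of 12 bases and those of Grin2c and Grin2d at 4, and within each of these pairs all 4 encoded residues were the same. Across the pairs 3 to 4 of 12 bases differed and 3 of 4 residues were the same. The stretches lie at chr16:9577830-9577853, chr6:135732101-135732124, chr11:115249574-115249597 and chr7:45832783-45832806, in the last coding exon of each gene.

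Whole genes differ far more in size. Grin2a (chr16:9567898-9995560) and Grin2b (chr6:135713233-136173511) have longest transcripts of 14.63 and 24.06 kb, against 4.28 kb for Grin1 (chr2:25291181-25319187). Grin2c (chr11:115249169-115267243), Grin2d (chr7:45831883-45878378) and Grin3a (chr4:49661611-49845744) have longest transcripts of 4.89, 5.43 and 7.49 kb. Grin1 shares 1307 exonic bases with the antisense gene Grin1os and Grin2d shares 643 with an antisense transcript. All exons of Grin1 and Grin2d cover 9700 and 6658 bases. Grin2b and Grin2c share at most 143 and 91 exonic bases with any gene of the opposite strand. Whether counting used strand is not given in the sources used here, so reads within the shared bases cannot be told apart by strand.

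Libraries summed to between 48656360 and 64632882 counts. App, which the transgene adds to, averaged 3379 ± 371 CPM in APP/PS1 control libraries and 1728 ± 247 CPM in WT libraries (SD, n = 5 each), with no overlap, as the labels have it. Prox1, the defining granule cell factor, was present in every library at 14.3 to 175 CPM. Several libraries stood apart. Ttr, which marks choroid plexus, exceeded 100 CPM in doubly treated replicate 5 (297 CPM) and in APP/PS1 control replicates 2, 4 and 5 (425, 1615 and 1269 CPM). The mean log2 CPM of 363 genes with a transcript of at least 10 kb, leaving out Grin2a and Grin2b, was below 5.4 in wheel replicates 1, 2 and 5 (5.23, 5.35 and 5.31) and APP/PS1 control replicate 1 (5.33), against 5.46 to 5.79 elsewhere. Markers of neighbouring brain regions also varied. The summed CPM of 9 dorsal midbrain markers was 2.66 to 39.7 in doubly treated, 52.9 to 103 in BCI-838, 5.31 to 105 in wheel, 11.4 to 79.0 in APP/PS1 control and 8.53 to 96.7 in WT libraries. Some comparisons involve the 4 libraries high in Ttr or the 4 low in long transcripts. There the differences that lead the account of each subunit gene are also given without them. Differences of other genes and of lists are given with all libraries only. In bulk tissue, fewer cells of a type and less RNA per cell cannot be told apart.

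Grin1 transcripts made up the largest part of the summed level of the 6 genes once each was divided by its length. On the scale of CPM per kb of annotated exon, Grin1 averaged 47.3 ± 5.45 in doubly treated, 37.3 ± 2.05 in BCI-838, 41.8 ± 4.82 in wheel, 39.2 ± 6.003 in APP/PS1 control and 42.1 ± 6.51 in WT libraries (SD, n = 4 for BCI-838 and 5 for the others). Its mean share of the 6 genes ranged from 54.6% to 56.9% over the groups on this scale. It was 71.2% to 73.2% per kb of longest transcript and 56.3% to 62.2% per kb of coding sequence, so the share depended on the length used. Per kb of exon Grin2c held 18.0% to 21.8% and Grin2b 10.4% to 16.4%. Grin2a held 3.40% to 5.32%, Grin2d 3.25% to 6.57% and Grin3a 1.09% to 2.57%. The order of Grin2c and Grin2b, and that of Grin2a and Grin2d, depended on the length used. Per kb of coding sequence Grin2b held 18.6% to 27.1% and Grin2c 7.26% to 9.70%. Grin2a then held 4.43% to 6.45% and Grin2d 1.64% to 3.48%. Per kb of exon Grin2d was above Grin2a in every group but the doubly treated. Grin1 was first on every scale. Of 60 group mean shares by longest transcript or coding length, 39 differed from the exon scale by at least the SD.

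**Figure D1:**
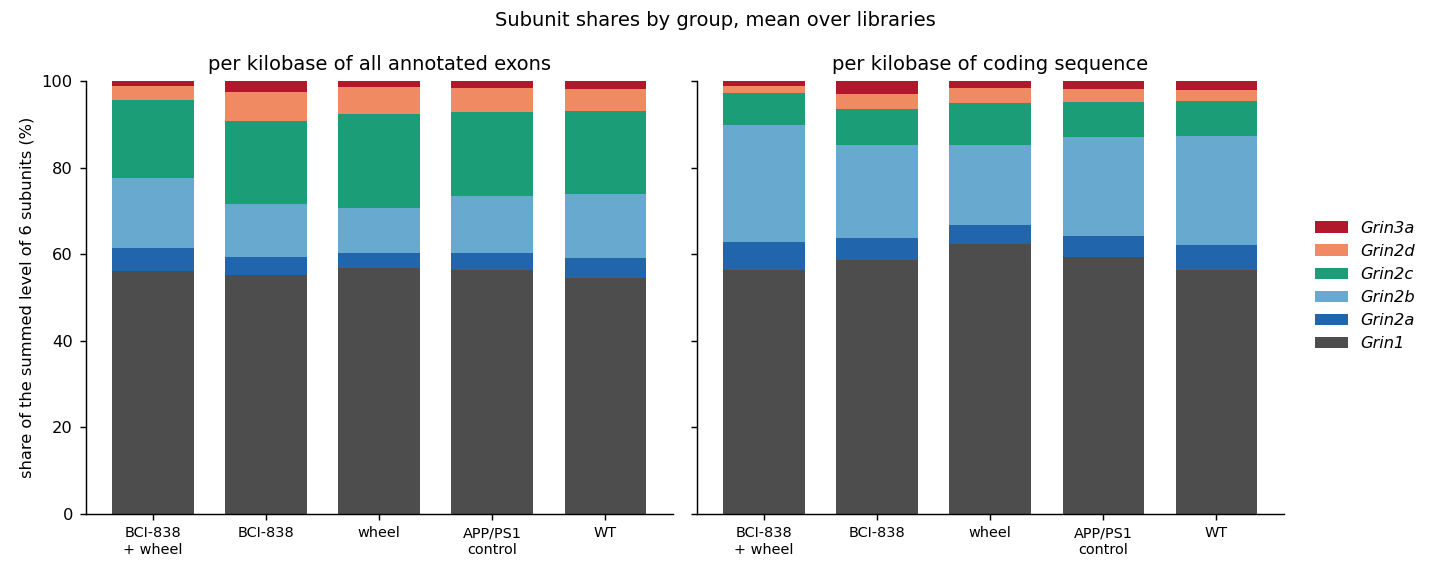
Stacked bars give the mean share (percent) of each of the 6 subunit genes in their summed level for the 5 groups, with levels per kb of exon in one panel and per kb of coding sequence in the other. Grin1 held the largest share on both scales, and the order of Grin2b and Grin2c turned between the panels. So did that of Grin2a and Grin2d, except in the doubly treated group.

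None of the 6 genes was called in any comparison at a Benjamini-Hochberg adjusted p under 0.05, by the quasi-likelihood F test of edgeR over 18286 genes. Calls were scarce across the genome too. The percentage of all genes called was 0 for doubly treated against APP/PS1 control, wheel and BCI-838 mice and for the interaction of the treatments, 0 for BCI-838 against APP/PS1 control, 0.00547 for wheel against APP/PS1 control and 0.0109 for APP/PS1 control against WT. The test for any difference among the 5 groups called 0.0273% of genes and no member. At an unadjusted p under 0.05, no member passed for BCI-838 or wheel against APP/PS1 control or for APP/PS1 control against WT, where 10.2%, 5.44% and 2.76% of all genes did. For the doubly treated mice, Grin1, Grin2a and Grin2b passed against APP/PS1 control, all 3 higher (10.6% of all genes in either direction, 4.87% higher). Against wheel mice Grin2a and Grin2b passed as higher and Grin2d as lower (17.6% of all genes, 8.73% higher and 8.83% lower). Against BCI-838 mice Grin1, Grin2a and Grin2b passed as higher and Grin2d and Grin3a as lower (14.3% of all genes, 7.48% higher and 6.84% lower). In the interaction Grin2b and Grin2d passed (9.6%), and in the 5-group test Grin2a and Grin2b (14.1%). With DESeq2 the members called were 1 for doubly treated against wheel mice, where the tool called 1.99% of all genes, and 1 in the 5-group test, where it called 2.7%. With limma's voom they were 2 each for doubly treated against wheel (5.41% of all genes), doubly treated against BCI-838 (4.79%) and the 5-group test (8.84%). Elsewhere neither tool called a member. There DESeq2 called 1.4% of all genes for doubly treated against BCI-838 and 0.449% against APP/PS1 control, 0.421% in the interaction, 0.93% for BCI-838 and 0.334% for wheel against APP/PS1 control and 0.0766% for genotype, and voom called 2.32% for BCI-838 against APP/PS1 control, 0.0109% for genotype and 0 in the rest. The groups of a pair did not overlap in Grin1 and Grin3a for doubly treated against BCI-838 mice, where 8.24% of all genes did not. In the other 5 pairs every member overlapped. The share of all genes without overlap was 1.01% for doubly treated against APP/PS1 control, 1.4% for doubly treated against wheel, 4.71% for BCI-838 and 0.585% for wheel against APP/PS1 control, and 0.312% for APP/PS1 control against WT.

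**Figure D2:**
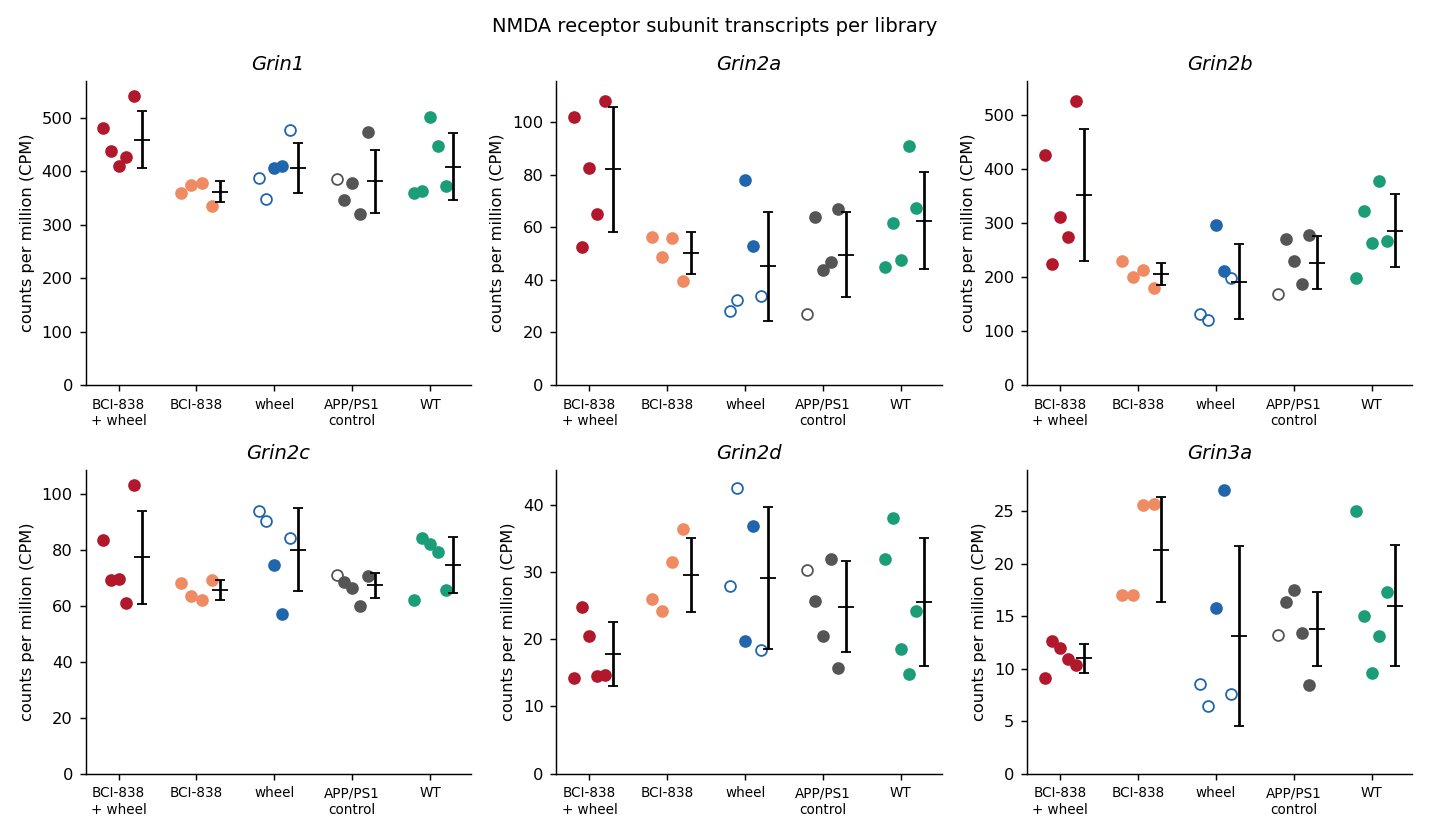
Each point is the CPM of 1 library, in 1 panel per subunit gene and 1 column per group, with the mean and SD as bars. Open circles are the 4 libraries low in long transcripts, which include the lowest Grin2a values of the wheel and APP/PS1 control groups.

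Grin1, the subunit that every NMDA receptor needs, was highest on average in the doubly treated libraries. They had 479.9, 438, 409, 426 and 541 CPM. Grin1 had 360, 375, 378 and 335 CPM in BCI-838 libraries and 387, 348, 405, 409.6 and 477 CPM in wheel libraries. It had 384, 346, 378, 320.4 and 474 CPM in APP/PS1 control libraries and 359, 362, 501, 447 and 373 CPM in WT libraries. Every doubly treated library was above every BCI-838 library, a separation in this direction that 4.3% of all genes showed, but the doubly treated libraries overlapped with each of the other 3 groups.

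The difference of doubly treated from BCI-838 mice in Grin1 was 0.34 ± 0.12 on the log2 scale (SE, a 1.27-fold difference), with an adjusted p of 0.209 in edgeR. Against APP/PS1 control it was 0.27 ± 0.11 (adjusted p = 0.407, edgeR), and against wheel mice 0.18 ± 0.11 (adjusted p = 0.401, edgeR). With the mean log2 CPM of the midbrain markers as a covariate the first of these was 0.12. Doubly treated and BCI-838 libraries did not overlap in the marker sum, so midbrain content and group cannot be fully told apart there. With voom, which called 4.79% of all genes here, that first difference was 0.34 with an adjusted p of 0.0472. This p was the lowest of a range that reached 1.00 over all settings tried. Without the 4 libraries high in Ttr the differences from BCI-838, APP/PS1 control and wheel mice were 0.28, 0.20 and 0.11, and without the 4 low in long transcripts those from APP/PS1 control and wheel mice were 0.27 and 0.18. For BCI-838, wheel and genotype alone the log2 differences were -0.07, 0.09 and -0.10, with intervals of 2 SE on either side of -0.31 to 0.16, -0.13 to 0.31 and -0.32 to 0.12.

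Grin2b encodes GluN2B, the subunit that carries the binding site for CaMKII in its long intracellular tail. Its values were 426, 224, 312, 275 and 527 CPM in doubly treated libraries. BCI-838 libraries had 230.1, 201, 213 and 179.8 CPM, and wheel libraries 132, 121, 296, 212 and 198 CPM. APP/PS1 control libraries had 169, 272, 229.7, 187 and 278 CPM, and WT libraries 198, 322, 264, 379 and 266 CPM. Doubly treated replicates 1 and 5 had the highest Grin2b of the 24 libraries, and wheel replicates 1 and 2 the lowest. Of the 5 doubly treated libraries, 4 were above every BCI-838 library, 3 above every wheel library and 3 above every APP/PS1 control library, so none of these groups was fully separate from the doubly treated one.

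Grin2a encodes GluN2A, the subunit of fast-decaying receptors that joins synapses as they mature. Doubly treated libraries had 102, 52.3, 82.5, 65.1 and 108 CPM of Grin2a. It had 56.4, 48.7, 55.8 and 39.4 CPM in BCI-838 libraries and 28.2, 32.2, 78.1, 52.9 and 34.0 CPM in wheel libraries. There were 27.2, 63.8, 43.6, 46.6 and 66.8 CPM in APP/PS1 control libraries and 44.7, 61.5, 47.6, 90.9 and 67.2 CPM in WT libraries. Grin2a followed the layout of Grin2b, with doubly treated replicates 1 and 5 highest. The lowest 4 values were those of wheel replicates 1, 2 and 5 and APP/PS1 control replicate 1.

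The largest differences of this pair lay between doubly treated and wheel mice, which addresses the addition of BCI-838 to running. Grin2b averaged 353 ± 122 CPM in doubly treated and 192 ± 70.4 CPM in wheel mice (SD, n = 5 each), a log2 fold change of 0.88 ± 0.24 (SE, 1.84-fold). Its adjusted p was 0.131 in edgeR, and it ranked 197 of 18286 genes by p. Grin2a averaged 82.0 ± 23.7 CPM in doubly treated and 45.1 ± 20.8 CPM in wheel mice, with a log2 fold change of 0.86 ± 0.28 and adjusted p = 0.152 in edgeR. Against BCI-838 mice Grin2b differed by 0.78 ± 0.26 (adjusted p = 0.207, edgeR) and Grin2a by 0.71 ± 0.30 (adjusted p = 0.281, edgeR). Against APP/PS1 control they differed by 0.64 ± 0.24 (adjusted p = 0.369, edgeR) and 0.72 ± 0.28 (adjusted p = 0.385, edgeR). These comparisons share the doubly treated libraries, so they are not separate evidence. Without the libraries high in Ttr, which left 2 APP/PS1 control libraries, the differences from APP/PS1 control were 0.63 for Grin2b and 1.09 for Grin2a (adjusted p = 0.477 and 0.417, edgeR), those from wheel mice 0.69 and 0.74, and those from BCI-838 mice both 0.59.

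Midbrain markers moved with the difference from BCI-838 mice. All 9 were lower in doubly treated mice, 6 of them at an unadjusted p under 0.05 (6.84% of all genes in this direction), with a median log2 fold change of -2.69. With their mean log2 CPM as a covariate the difference was 0.22 for Grin2b and 0.28 for Grin2a (adjusted p = 1.00 for both, edgeR), and that from APP/PS1 control 0.35 and 0.52. The marker sums of doubly treated (2.66 to 39.7 CPM) and BCI-838 libraries (52.9 to 103 CPM) did not overlap. Midbrain content and group can therefore not be fully told apart in the comparison with BCI-838 mice. The part of midbrain RNA in these values was not tested.

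Both genes belong to the long-transcript class, in which 3 of the 5 wheel libraries were low. Of 365 such genes, 300 were higher in doubly treated than in wheel mice and 65 lower, with a median log2 fold change of 0.22, while the median of all genes was -0.02. All 76 cytosolic ribosomal protein genes were lower, with a median of -0.26. Without the 4 libraries low in long transcripts, the difference between doubly treated and wheel mice was 0.49 for Grin2b (adjusted p = 0.741, edgeR) and 0.33 for Grin2a (adjusted p = 0.796, edgeR), where 2 wheel libraries remained. With the long-transcript mean as a covariate it was 0.54 and 0.38. Against APP/PS1 control, where 1 of the 4 belonged, the difference without them was 0.55 for Grin2b and 0.57 for Grin2a. None of the 4 libraries belongs to the comparison with BCI-838 mice, whose libraries all lay at 5.64 to 5.73, and there 191 of the 365 long-transcript genes were higher with a median of 0.01. Leaving out wheel replicate 3 alone, after which 3 of the 4 wheel libraries were low in long transcripts, gave 1.09 for Grin2b and 1.15 for Grin2a against wheel mice, with adjusted p of 0.0395 and 0.0406 in edgeR, against ranges of 0.0243 to 0.741 and 0.0323 to 0.796 over all settings. That fit called 2.19% of all genes, against 0 with all libraries.

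**Figure D3:**
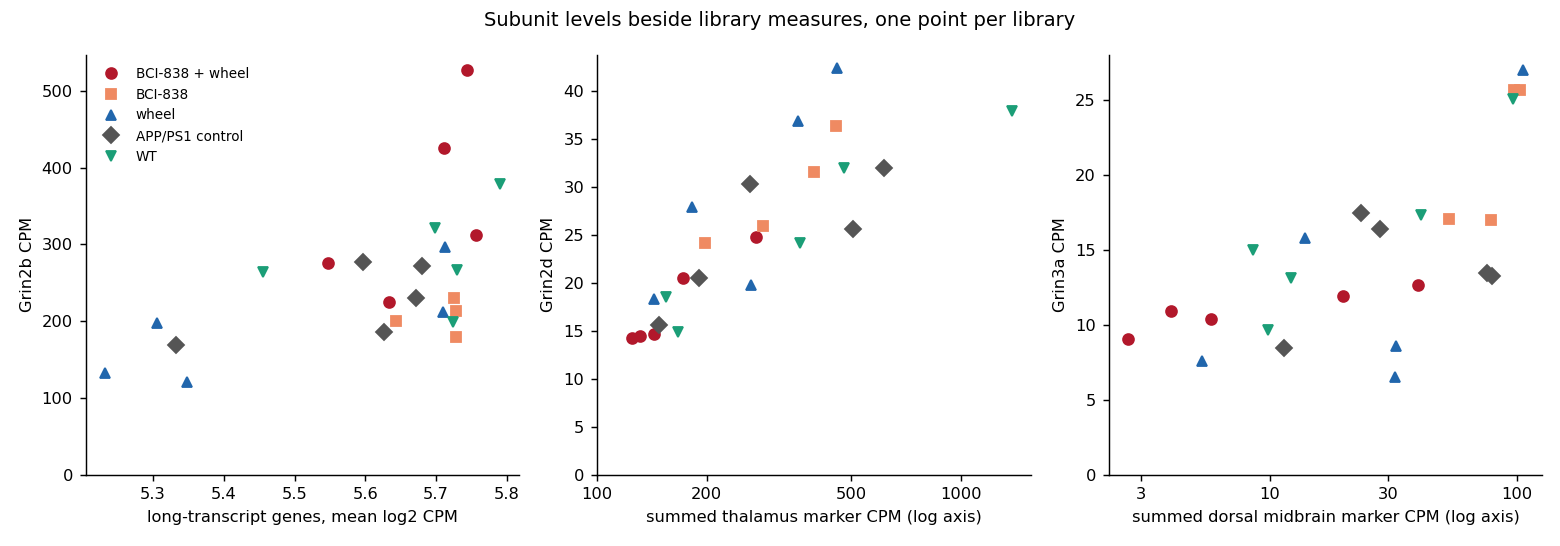
The panels set the CPM of a subunit gene, on a linear axis, against a measure of the same library: Grin2b against the mean log2 CPM of long-transcript genes, Grin2d against summed thalamus markers and Grin3a against summed dorsal midbrain markers (the marker sums in CPM on log axes). Each point is 1 of 24 libraries, coloured by group. The 4 libraries under 5.4 on the first axis all had Grin2b of 198 CPM or less, and the 4 highest Grin3a values lay at 96.7 to 105 CPM of midbrain markers.

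The interaction asks whether the difference made by BCI-838 depended on the wheel. It was 1.02 ± 0.35 on the log2 scale for Grin2b (adjusted p = 0.407, edgeR) and 0.85 ± 0.41 for Grin2a (adjusted p = 0.521, edgeR). For Grin2b this combined a difference of 0.88 between doubly treated and wheel mice with one of -0.14 between BCI-838 and APP/PS1 control mice. Without the 4 libraries high in Ttr the interaction was 0.64 for Grin2b and 0.24 for Grin2a, without the 4 low in long transcripts 0.73 and 0.49, and with the midbrain covariate 0.45 and 0.39. For the single treatments and genotype the intervals were wide. Grin2b lay at -0.65 to 0.37 for BCI-838, -0.72 to 0.24 for the wheel and -0.81 to 0.15 for APP/PS1 control against WT, and Grin2a at -0.58 to 0.61, -0.70 to 0.42 and -0.89 to 0.23. The genotype difference of -0.33 in each gene was -0.52 for Grin2b and -0.82 for Grin2a without the libraries high in Ttr (adjusted p = 0.981 for both, edgeR), and -0.24 and -0.17 without the libraries low in long transcripts.

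**Figure D4:**
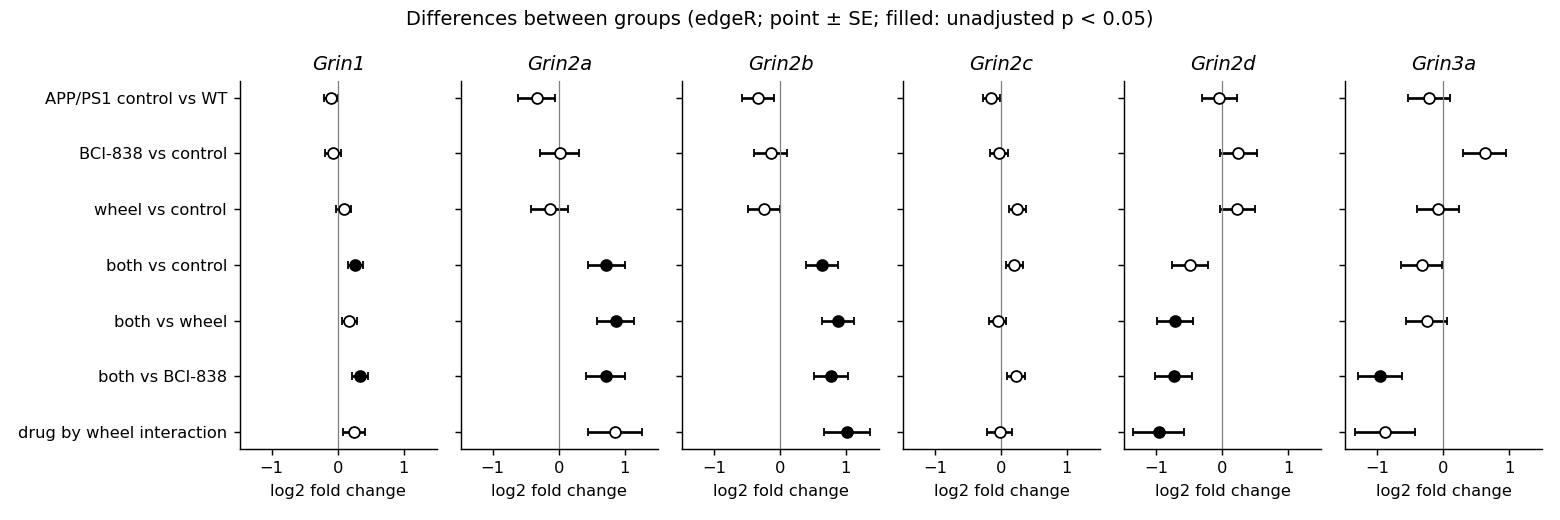
Log2 fold changes with SE bars are drawn for the 6 subunit genes in the 7 comparisons, filled where the unadjusted p was under 0.05. Doubly treated mice were above each of the other APP/PS1 groups in Grin2a and Grin2b and below them in Grin2d, and no point passed at an adjusted p under 0.05.

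Grin2c encodes GluN2C, whose receptors are weakly blocked by magnesium. Doubly treated libraries had 83.6, 69.3, 69.6, 61.1 and 103 CPM. There were 68.3, 63.5, 62.1 and 69.4 CPM in BCI-838 libraries and 93.9, 90.5, 74.4, 57.1 and 84.4 CPM in wheel libraries. APP/PS1 control libraries had 71.2, 68.6, 66.3, 60.04 and 70.5 CPM, and WT libraries 61.9, 84.2, 82.0, 79.4 and 65.5 CPM. Grin2c had the smallest SD relative to its mean of the GluN2 genes in each group, and every compared pair of groups overlapped. In 4 of 5 wheel libraries it was above every APP/PS1 control library, yet the difference of 0.25 ± 0.13 on the log2 scale had an adjusted p of 0.953 in edgeR, and was -0.03 without the libraries low in long transcripts. Against APP/PS1 control, wheel and BCI-838 mice the doubly treated differed by 0.20 ± 0.13, -0.05 ± 0.13 and 0.23 ± 0.14, and the genotype difference was -0.15 ± 0.13. Without the libraries high in Ttr these 4 values were 0.04, -0.17, 0.11 and -0.12, and without those low in long transcripts the difference from wheel mice was 0.25.

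Grin2d, which encodes the slow GluN2D subunit, was lowest on average in the doubly treated mice. Its values there were 14.3, 24.8, 20.5, 14.5 and 14.6 CPM. It had 26.0, 24.2, 31.5 and 36.3 CPM in BCI-838 libraries and 27.9, 42.4, 19.7, 36.9 and 18.4 CPM in wheel libraries. There were 30.3, 25.6, 20.5, 31.9 and 15.7 CPM in APP/PS1 control libraries and 32.0, 37.9, 18.6, 14.9 and 24.1 CPM in WT libraries. Doubly treated replicates 1, 4 and 5 were the lowest of the 24 libraries, with WT replicate 4 close to them. Of the 5 doubly treated libraries, 4 were below every BCI-838 library and 3 below every wheel and every APP/PS1 control library. The log2 differences were -0.73 ± 0.28 from BCI-838 (adjusted p = 0.241), -0.71 ± 0.27 from wheel (adjusted p = 0.188) and -0.48 ± 0.27 from APP/PS1 control mice (adjusted p = 0.530), all in edgeR. The interaction was -0.96 ± 0.39 (adjusted p = 0.453, edgeR). Without the libraries high in Ttr the differences from BCI-838, wheel and APP/PS1 control mice were -0.67, -0.65 and -0.46, and without those low in long transcripts the differences from wheel and APP/PS1 control mice were -0.67 and -0.41.

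Markers of the thalamus moved with Grin2d. The summed CPM of 8 thalamus markers had a median of 144 in doubly treated libraries (125 to 273), 340.1 in BCI-838 (199 to 453), 265 in wheel (144 to 456), 263 in APP/PS1 control (148 to 613) and 361 in WT libraries (154 to 1379). Against APP/PS1 control, 7 of these 8 markers were lower in doubly treated mice, 4 of them at an unadjusted p under 0.05, where 5.73% of all genes passed in this direction, and the list had a median log2 fold change of -1.03. Against BCI-838 mice 6 of 8 were lower, 2 of them unadjusted (6.84% of all genes), with a median of -1.33. Against wheel mice 6 were also lower and 2 passed (8.83% of all genes), with a median of -1.05. Tcf7l2, the defining thalamic factor of the list, averaged 33.1 ± 40.2 CPM in doubly treated and 67.8 ± 55.2 CPM in APP/PS1 control mice (SD, n = 5 each). The highest thalamus sum, 1379 CPM in WT replicate 2, stood with 37.9 CPM of Grin2d, the highest of the WT group. APP/PS1 control replicate 2 had a sum of 504 CPM with 25.6 CPM of Grin2d, while replicate 1 had 263 CPM with 30.3 CPM. With the midbrain markers as a covariate the Grin2d differences of doubly treated from BCI-838, wheel and APP/PS1 control mice were -0.10, -0.38 and -0.14. In the comparison with BCI-838 mice midbrain content and group cannot be fully told apart. The part of thalamic RNA in the Grin2d values was not tested. 

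Grin3a, for the GluN3A subunit, had the narrowest spread in the doubly treated libraries, at 9.09, 12.7, 11.9, 10.9 and 10.4 CPM. It had 17.0, 17.0, 25.6 and 25.7 CPM in BCI-838 libraries and 8.58, 6.49, 15.8, 27.0 and 7.60 CPM in wheel libraries. APP/PS1 control libraries had 13.2, 16.4, 17.5, 13.4 and 8.47 CPM, and WT libraries 25.1, 14.99, 9.63, 13.1 and 17.3 CPM. All doubly treated libraries were below all BCI-838 libraries, which 3.94% of all genes also showed. The log2 difference was -0.95 ± 0.33 (1.94-fold lower), with adjusted p = 0.212 in edgeR. BCI-838 mice were above APP/PS1 control by 0.63 ± 0.33 (adjusted p = 0.534, edgeR), and the interaction was -0.88 ± 0.46 (adjusted p = 0.550, edgeR). Without the libraries high in Ttr these 3 values were -0.93, 0.47 and -0.71, and without those low in long transcripts the last pair were 0.60 and -1.55.

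Dorsal midbrain markers were present in the same libraries as high Grin3a. The 4 highest Grin3a values, in wheel replicate 4, BCI-838 replicates 3 and 4 and WT replicate 1, came with midbrain sums of 105, 97.5, 103 and 96.7 CPM, the 4 highest of all. APP/PS1 control replicates 1 and 4 had sums of 79.0 and 75.6 CPM and Grin3a of only 13.2 and 13.4 CPM. The 4 libraries highest in Grin3a were also high in 10 summed interneuron markers, at 1422, 1372, 1223 and 1292 CPM in the order above. Doubly treated replicate 4 had 1281 CPM of these with only 10.9 CPM of Grin3a. Group medians of the interneuron sum were 1211 CPM in BCI-838 and 1040 CPM in doubly treated libraries. Pax7, the defining midbrain factor, lay at 0 to 3.93 CPM in doubly treated and 6.73 to 13.4 CPM in BCI-838 libraries. The midbrain sums of these groups did not overlap either, so midbrain content and group cannot be fully told apart. With the midbrain covariate the Grin3a difference of doubly treated from BCI-838 mice was -0.22 (adjusted p = 1.00, edgeR), against a range of 0.0349 to 1.00 over all settings. Fitted on these 9 libraries alone it was -0.95 with an adjusted p of 0.0429, in an edgeR fit that called 0.637% of all genes, and with voom, which called 4.79%, -0.94 with 0.0349. The parts of midbrain and interneuron RNA in the Grin3a values were not tested.

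**Figure D5:**
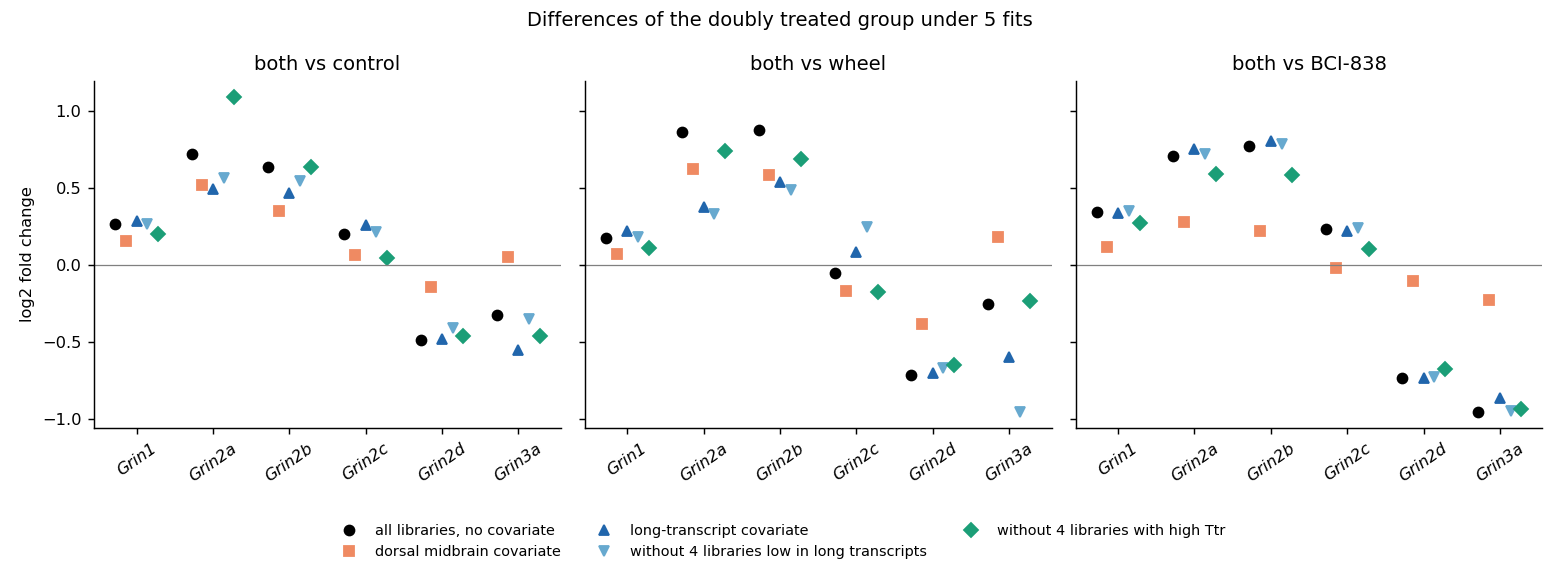
Log2 fold changes of the 6 subunit genes for doubly treated against APP/PS1 control, wheel and BCI-838 mice are drawn under 5 fits, from all libraries, with the midbrain covariate, with the long-transcript covariate, and without the libraries high in Ttr or low in long transcripts. Grin2a and Grin2b against BCI-838 mice were 0.28 and 0.22 with the midbrain covariate and 0.59 to 0.80 in the other fits. Midbrain marker sums of doubly treated and BCI-838 libraries did not overlap.

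Ordered by group mean, neighbouring groups rarely differed beyond their spread. The doubly treated mice ranked first in Grin1, Grin2a and Grin2b and last in Grin2d and Grin3a, and WT mice ranked second in Grin1, Grin2a, Grin2b and Grin3a. Only the step in Grin2d between doubly treated (17.7 ± 4.73 CPM) and APP/PS1 control mice (24.8 ± 6.79 CPM), a gap of 7.07 CPM, exceeded the larger SD of its neighbours.

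Ratios of subunits within a library do not depend on library scaling. The counts were not divided by gene length, so these percentages compare groups and not the levels of different genes. Grin2a counts as a percentage of Grin2b counts averaged 23.6 ± 2.13 in doubly treated, 24.2 ± 1.76 in BCI-838, 23.3 ± 4.01 in wheel, 21.5 ± 3.82 in APP/PS1 control and 21.8 ± 3.09 in WT mice. The highest and lowest of these means, 24.2 and 21.5, differed by less than the SD in the wheel or APP/PS1 control libraries. Grin2a to Grin2d summed as a percentage of Grin1 averaged 114 ± 22.6 in doubly treated, 97.2 ± 6.57 in BCI-838, 85.7 ± 18.1 in wheel, 97.8 ± 17.2 in APP/PS1 control and 111 ± 23.3 in WT mice. None of the 12 two-sided exact permutation tests of these log2 ratios passed, the smallest p being 0.0635 for the summed ratio in doubly treated against wheel mice (a log2 difference of 0.41, adjusted p = 0.585, exact). That difference was 0.33 without the libraries high in Ttr and 0.16 without those low in long transcripts. The smallest p such a test allows is 0.00794 with 5 against 5 libraries and 0.0159 with 4 against 5.

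Of 15 pairs of subunit genes, 4 were correlated within groups on at least 1 coefficient. After group means were removed, Grin2a and Grin2b had Pearson r = 0.89 and Spearman rho = 0.90 over 24 libraries (permutation p = 1e-05 for both, the smallest that 100000 permutations can give, adjusted p = 0.00015 over 15 pairs). Without the 2 libraries farthest from the median of Grin2a, r was 0.87. Grin1 and Grin2d went in opposite directions, with r = -0.75 and rho = -0.73 (permutation p = 0.0005 and 0.00081, adjusted p = 0.00375 and 0.00405), and -0.70 without the 2 farthest libraries. So did Grin2c and Grin3a, with r = -0.67 and rho = -0.68 (permutation p = 0.00112 and 0.00074, adjusted p = 0.0056 and 0.00405), and -0.63 without them. Grin2b and Grin2d had r = -0.59 and rho = -0.56 (permutation p = 0.00963 and 0.0167, adjusted p = 0.0361 and 0.0502). Libraries share their depth and their content of neighbouring tissue across these genes. The other 11 pairs did not pass at an adjusted p under 0.05 on either coefficient.

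For each subunit gene the 3 genes most alike in pattern over the 24 libraries were found among 15092 candidates. Pearson r of log2 CPM was used as a description and does not compare absolute levels. Grin1 was closest to Kcnab2 (0.94), which encodes a potassium channel beta subunit, Large (0.93), a glycosyltransferase of dystroglycan, and Arf1 (0.93), a small GTPase of the Golgi. Grin2a was closest to Lrrc7 (0.95), the postsynaptic scaffold densin-180, Nbea (0.94), the trafficking protein neurobeachin, and Syt14 (0.93). Among the genes closest to Grin2b was the G protein gene Gnaq (0.95). Grin2c had the loosest neighbours, Pdzd4 (0.85), Csnk1g2 (0.80) and Tmem160 (0.79). For Grin2d they were Epha8 (0.94), Ttc39a (0.94) and Sema4g (0.93), and for Grin3a Slc38a1 (0.94), a glutamine transporter, Rcan3 (0.93) and Clcn5 (0.92).

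Genes that work with the receptor were described by lists, none of which held a gene called at an adjusted p under 0.05. Their differences come from all libraries, including those high in Ttr and those low in long transcripts. Among 15 postsynaptic scaffold genes, which anchor the GluN2 tails shown above, 14 were higher in doubly treated than in BCI-838 mice, 11 of them at an unadjusted p under 0.05, where 7.48% of all genes passed in this direction and 48.7% were higher. Their median log2 fold change was 0.52, beside -0.01 for all genes. Dlgap1, a scaffold that binds PSD-95, was at 853 CPM in doubly treated and 592 CPM in BCI-838 mice (0.53 ± 0.15, adjusted p = 0.185, edgeR). Its relative Dlgap2 was at 90.4 CPM in doubly treated and 56.1 CPM in BCI-838 mice (0.69 ± 0.20). Against wheel mice 14 of 15 were again higher and 5 passed unadjusted (8.73% of all genes, with 46.6% higher), with Dlgap2 at 0.66 ± 0.18 and Shank2 at 0.43 ± 0.12. Against APP/PS1 control 14 of 15 were higher and 3 passed unadjusted (4.87% of all genes, with 48.6% higher), Shank2 at 0.35 ± 0.12, Dlgap2 at 0.48 ± 0.18 and Homer2 at 0.63 ± 0.26. In BCI-838 against APP/PS1 control mice, 13 of 15 were lower with a median of -0.21, where 50.1% of all genes were higher, and Homer3 alone passed unadjusted (-0.78 ± 0.36), as 5.96% of all genes did in this direction.

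Of 16 genes for calcium signalling below the receptor, 14 were higher in doubly treated than in BCI-838 mice, 12 than in wheel and 13 than in APP/PS1 control mice, with medians of 0.34, 0.20 and 0.19. Camk2a, the alpha subunit of CaMKII, was at 5001 CPM in doubly treated and 2828 CPM in BCI-838 mice (0.82 ± 0.23, adjusted p = 0.185, edgeR). Nos1, neuronal nitric oxide synthase, was at 46.9 CPM in doubly treated and 28.6 CPM in wheel mice (0.71 ± 0.25), and the calcineurin subunit gene Ppp3cb at 449.7 CPM in doubly treated and 353 CPM in APP/PS1 control mice (0.35 ± 0.12). Of 14 tested genes for enzymes and receptors that act on the NMDA receptor, 13, 10 and 12 were higher in the same comparisons, with medians of 0.12, 0.11 and 0.10. Prkca, a protein kinase C gene, was at 449.8 CPM in doubly treated, 208 CPM in BCI-838, 233 CPM in wheel and 262 CPM in APP/PS1 control mice.

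AMPA receptor subunits, which carry the fast current beside the NMDA receptor, were higher in 3 of 4 genes in each of the 3 comparisons, with medians of 0.29, 0.18 and 0.21. Gria1 was at 1261 CPM in doubly treated and 856 CPM in BCI-838 mice (0.56 ± 0.19), and Gria3 at 271 CPM in doubly treated and 213 CPM in wheel mice (0.35 ± 0.14). The 7 kainate and delta receptor genes were divided, with 3, 4 and 3 higher and medians of -0.16, 0.04 and -0.03. Of 12 activity-dependent targets 9 were higher in each comparison, with medians of 0.60, 0.26 and 0.32, among them the immediate early gene Egr4 at 22.4 CPM in doubly treated and 11.2 CPM in BCI-838 mice (0.99 ± 0.30). Among regulators of subunit transcription and RNA, 5, 11 and 8 of 12 were higher, with Mef2a, a neuronal transcription factor, at 124 CPM in doubly treated and 83.0 CPM in wheel mice (0.58 ± 0.19).

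Genes for the receptor's ligands were grouped in a list for the co-agonists and one for glutamate. Of 15 genes for handling glycine and D-serine, 5, 4 and 6 were higher in doubly treated than in BCI-838, wheel and APP/PS1 control mice, and the medians were -0.05, -0.13 and -0.08. Slc6a9, the glial glycine transporter, was at 53.7 CPM in doubly treated and 84.8 CPM in BCI-838 mice (-0.66 ± 0.24), while Srr, serine racemase, was at 56.8 CPM in doubly treated and 45.7 CPM in BCI-838 mice (0.31 ± 0.14). For glutamate synthesis and transport 8, 9 and 9 of 12 were higher, with medians of 0.06, 0.05 and 0.10. The vesicular glutamate transporters parted, with Slc17a7 at 1452 CPM in doubly treated and 849 CPM in BCI-838 mice (0.77 ± 0.22) and Slc17a6, also in the thalamus marker list, at 38.0 CPM in doubly treated and 133 CPM in BCI-838 mice (-1.80 ± 0.60). In receptor trafficking, 5, 9 and 8 of 10 genes were higher, with medians of -0.02, 0.14 and 0.12. Actn2, an actin-binding partner of GluN1, was at 10.5 CPM in doubly treated, 4.86 CPM in BCI-838 and 11.3 CPM in APP/PS1 control mice, a difference of BCI-838 from control of -1.22 ± 0.31 (adjusted p = 0.181, edgeR). The list as a whole went the other way in that comparison, with 7 of 10 genes higher and a median of 0.12. At an unadjusted p under 0.05, 4 were higher and 1 lower (10.2% of all genes in either direction, 5.96% lower).

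Markers of CA field pyramidal cells, the neighbouring principal neurons of the hippocampus, were also higher in the doubly treated mice. Their summed CPM over 10 genes had a median of 827 in doubly treated libraries (531 to 1360), 489.6 in BCI-838 (387 to 569), 620.1 in wheel (402 to 849), 636 in APP/PS1 control (439.6 to 817) and 568.2 in WT libraries (461 to 1183). Granule cell markers, over 10 genes, had medians of 1241 in doubly treated (602 to 1575), 1016 in BCI-838 (855 to 1170), 1292 in wheel (756 to 1444), 1244 in APP/PS1 control (458 to 1628) and 1243 in WT libraries (260 to 1567). Doubly treated replicate 5, highest in Grin1, Grin2a and Grin2b, had the highest CA sum and the lowest granule sum of its group. WT replicate 3 had the highest WT Grin1 (501 CPM), with a CA sum of 1183 and a granule sum of 260. Doubly treated replicate 3, lowest of its group in CA sum, had more Grin2b (312 CPM) than replicates 2 and 4 (224 and 275 CPM). The difference of the granule and CA field lists in mean log2 CPM was also used as a covariate. The Grin2b difference of doubly treated from wheel mice was then 0.83 and that of Grin1 from BCI-838 mice 0.27. Other differences under this covariate are not given here. The CA list differed most from BCI-838 mice, with a median log2 fold change of 0.96, beside 0.60 from wheel and 0.45 from APP/PS1 control mice. The part of CA field RNA in the lists above was not tested.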

How the data were processed

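RNA-seq read counts per gene were deposited by the authors as 1 table with a column for each of 24 libraries, and the submitters' processing notes name STAR, HTSeq, DESeq and mm10. Versions and counting strand: not given in the sources used here. Another deposited signal table holds the counts divided by 1 factor per library (0.880 to 1.175) and was not used in tests. All columns were mapped by title.

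Counts were filtered with filterByExpr (minimum count 10, total 15), TMM-scaled and modelled jointly, each group with its own mean, in edgeR 4.0.16 (R 4.3.3), which was tested on simulated data. The robust quasi-likelihood F test gave p-values, adjusted over 18286 genes and called under 0.05. SE is the log2 fold change over the square root of F, and CPM uses TMM-scaled library sizes. No 2 libraries agreed within sampling noise. Ratios were tested by exact permutation (SciPy 1.17.1 in Python 3.11.15), and correlations used a prior count of 2.

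Members and lists were chosen with earlier results of these data known. Named were all members, the 3 genes most like each, defining markers, and from each list at most the 3 genes with the smallest p in a comparison. Some items that this rule names, and some sequences, are not reported here. Alternatives were DESeq2 1.42.0 or its size factors, limma 3.58.1 voom with quality weights, other filters, covariates, a replicate block and omitted libraries. The long-transcript alternatives were chosen after seeing the data. Intervals and tests cover spread between mice as labelled.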

Additional observations from a re-analysis of the deposited data

How the results depend on the processing

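No member was called with the count scaling, filters, covariates or block tried in edgeR. Members called changed in these cases: doubly treated against BCI-838 mice had 1 when only those libraries were fitted (Grin3a) and 2 with voom (Grin1, Grin3a); against wheel mice 1 with DESeq2 (Grin2b), 2 with voom and 0 to 2 when 1 library was left out, 2 without wheel replicate 3; the 5-group test had 1 with DESeq2 (Grin2b, adjusted p = 0.0352) and 2 with voom (Grin2b 0.0360, Grin3a 0.0355), over ranges that reached 0.575 and 0.946. Over all genes, calls ranged over the settings from 0 to 989 for doubly treated against wheel, 0 to 876 against BCI-838 and 3 to 1616 in the 5-group test. Of 546 member log2 fold changes under settings that kept or dropped several libraries, 507 kept sign and side of the threshold, 6 crossed it and 33 changed sign; of 462 that left out 1 library, 432, 2 and 28 did.

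All sign changes were of differences that passed no test, and their cause was not tested. The interaction of Grin2c was 0.0049 with DESeq2 size factors, 0.0049 with DESeq2, 0.0019 without a filter, 0.050 with the long-transcript covariate and 0.27 without the libraries low in long transcripts. BCI-838 against APP/PS1 control gave Grin2c 0.023 with the choroid, 0.085 with the midbrain and 0.035 with the long-transcript covariate, Grin2b 0.088 (choroid), 0.13 (midbrain) and 0.047 (without high-Ttr libraries), Grin1 0.038 and Grin2d -0.042 (midbrain), and Grin2a -0.046 (voom), -0.26 (long-transcript covariate) and -0.15 (without low long-transcript libraries). Wheel against APP/PS1 control gave Grin2a 0.25 (choroid), 0.35 (without high Ttr), 0.12 (long-transcript covariate) and 0.23 (without low long-transcript libraries), Grin3a 0.040 and 0.61 in those last settings, and Grin2b 0.060 and Grin2c -0.028 in the last. For doubly treated mice, Grin3a was 0.055 against control and 0.18 against wheel (midbrain) and 0.19 against wheel (voom). Grin2c was 0.084 and 0.25 against wheel in the long-transcript settings and -0.019 against BCI-838 (midbrain). APP/PS1 control against WT gave Grin2d 0.041 (voom) and Grin3a 0.058 (long-transcript covariate). The ratio of Grin2a to Grin2b was 0.0084 in doubly treated against BCI-838 mice without high Ttr, and 0.075 for genotype and -0.13 for doubly treated against wheel without the low long-transcript libraries, where the summed ratio was -0.075 for BCI-838 against control.

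Leaving out 1 library gave Grin2d -0.18 to 0.15 and Grin3a -0.35 to 0.0029 for genotype, Grin1 -0.14 to 0.0097 and Grin2a -0.14 to 0.14 for BCI-838, Grin3a -0.53 to 0.084 for the wheel, Grin2c -0.13 to 0.058 for the interaction, and Grin2c -0.17 to 0.025 and Grin3a -0.42 to 0.20 for doubly treated against wheel. Ratios of Grin2a to Grin2b ranged over -0.089 to 0.075 (genotype), -0.088 to 0.0084 (against BCI-838) and -0.073 to 0.084 (against wheel), and the summed ratio over -0.075 to 0.095 (BCI-838).

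The correlation of Grin2b with Grin2d was -0.58 without high-Ttr libraries (adjusted permutation p = 0.119), and Grin2b with Grin2c -0.037. Grin2a with Grin2c was 0.010 with size factors. Without the low long-transcript libraries Grin2a with Grin2c was 0.57, Grin2a and Grin2b with Grin3a -0.44 and -0.50, and Grin1 with Grin2b 0.54, with Grin2c 0.56 and with Grin3a -0.66, Grin2a with Grin2d -0.57, Grin2b with Grin2c 0.82 and Grin2d with Grin3a 0.69, with Grin2b and Grin3a (adjusted permutation p = 0.0416) and the last 6 pairs passing at an adjusted p under 0.05.

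Replicate numbers were not taken to pair the mice. Between groups, 46 same-numbered pairs of libraries had correlations of -0.38 to 0.40 with a median of -0.0055, and 10 exceeded 0.1. The 184 pairs with different numbers had -0.38 to 0.43 with a median of -0.0047, and 48 exceeded 0.1. These values cannot settle whether the mice were paired. With the number as a replicate block no member was called, BCI-838 against control gave Grin2c 0.0016 and a summed ratio of -0.017, and Grin2a to Grin2b in doubly treated against BCI-838 mice was 0.0084. With 4 or 5 mice per group the data limit the precision to the intervals given.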
